A study of Mus musculus with 24 samples.

Results

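The 26S proteasome subunit genes were followed in mouse embryonic fibroblasts under endoplasmic reticulum (ER) stress and in cells mutant for single steps of the stress pathway. Members were the genes whose symbol begins with Psma, Psmb, Psmc or Psmd followed by a number. The interferon-induced subunits Psmb8, Psmb9 and Psmb10 and the thymus subunit Psmb11 were left out. That gave 35 of the 20170 genes named on the array, 15 of the core particle and 20 of the regulatory particle, each represented by its brightest probe. Of these, 34 members, 14 core and 20 regulatory, were among the 14459 genes tested, and all 34 were well above background on every array. Psma8, a testis paralogue of an alpha subunit, was not tested because no group had it above background on all its arrays.

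The proteasome degrades proteins tagged with ubiquitin. Its core particle is a barrel in which rings of alpha subunits (Psma) form the gate and rings of beta subunits (Psmb) hold the proteolytic sites. The regulatory particle consists of a base, whose ATPases (Psmc) unfold the substrate, and a lid, which removes the ubiquitin chain. Proteins that fail to fold in the ER are exported to the cytosol and degraded there by the proteasome. The transcription factor encoded by Nfe2l1 raises subunit genes together when proteasome activity is low.

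RNA was hybridised to 24 one-colour Agilent arrays, 1 sample each, of cells cultured in medium with serum. Wild-type cells were measured untreated and after tunicamycin, which blocks N-glycosylation so that misfolded proteins gather in the ER, with 4 arrays in each group. The other 8 groups held 2 arrays each. Perk-null (PERKKO) cells lack the ER kinase PERK, which phosphorylates the translation factor eIF2a, and Atf4-null (ATF4KO) cells lack the transcription factor ATF4, whose translation rises when eIF2a is phosphorylated. In eIF2a A/A cells the serine of eIF2a that PERK phosphorylates is replaced by alanine. These 3 genotypes were measured in the same way. Tunicamycin was used at 2 µg per mL. Each sample's label gives 12 h for it, whereas the shared treatment protocol names 12 or 24 h, and 1 untreated Perk-null sample, replicate 2, has a file whose name gives a 24 h mock treatment. The last cells carry the transgene Fv2E-PERK, a PERK kinase domain activated by a dimerizing compound in the absence of ER stress. They were measured without and with that compound, labelled AP, given for 12 h at a dose not given in the sources used here. Neither the promoter that drives the transgene nor the embryos, clones or passages behind any line are stated. The labels do not say that replicates were separate cultures, so the spread behind each p-value is that between these samples and may be only technical.

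By the scan dates in their headers the arrays were scanned in 8 sessions, grouped here by year into 3 runs. Run 3 used version 2 of the array design and the others version 1. In run 1, replicates 1 and 2 of each group were scanned in different sessions. The Atf4-null arrays were in run 1 with wild-type replicates 1 and 2. The Perk-null arrays were in run 2, together with replicates 3 and 4 of the wild type. Run 3 contained no wild-type array, only those of Fv2E-PERK and eIF2a A/A cells. In run 1 the treated arrays lay on 1 slide and the untreated arrays on another. Slide and tunicamycin therefore cannot be told apart for Atf4-null cells, nor for the wild type within run 1. The wild-type arrays of run 2, treated and untreated, shared 1 slide. The wild-type cells of runs 1 and 2 stood apart from each other, with correlations between runs of 0.933 to 0.949 against 0.973 to 0.997 within a run. By the names of their data files they are of different lines, run 1 holding the wild-type counterpart to the Atf4-null cells and run 2 the one to the Perk-null cells, so the 4 wild-type arrays of a group are not replicates of a single line. The 75th percentile of an array's signal ranged from 111 to 418 intensity units, and was lowest on Atf4-null treated replicate 1. Atf4 itself stood at log2 levels of 2.79 and -0.05 in untreated and -4.27 and 0.01 in treated Atf4-null cells, against 7.20 to 7.65 in untreated wild-type cells. Eif2ak3, which encodes PERK, was lower in untreated Perk-null than in untreated wild-type cells by a log2 difference of -1.20 (SE 0.24, adjusted p = 0.00102), although single arrays of these groups overlapped. The probe's place relative to the deleted part of the gene is not given in the sources used here. Of 12 fibroblast markers 10 were above background on all 24 arrays. The ER chaperone Hspa5 rose with tunicamycin in all 4 genotypes given it, by 1.25 to 2.18 on the log2 scale. A level here is the log2 processed intensity after subtraction of its 75th percentile on that array, a change is a difference of such levels, and a gene was called at a Benjamini-Hochberg adjusted p under 0.05 over all genes tested (limma).

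In wild-type cells tunicamycin changed few proteasome subunit genes, and not in 1 direction. Of 34 members, 4 rose and 4 fell, where 37.5% of all genes tested were called, 21.2% higher and 16.3% lower. The members' median change was -0.07 on the log2 scale, against 0.07 for all genes. The largest rise was that of Psmd8, a lid subunit, and the largest fall that of Psma5, an alpha subunit.

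The alpha ring leaned downward in wild-type cells. All 7 tested alpha subunits had a negative change, from -0.53 to -0.11, and Psma5 and Psma2 passed the test. Psma5 stood at levels of 5.43, 5.33, 5.76 and 5.93 in the untreated and 4.79, 4.41, 5.45 and 5.67 in the treated wild-type arrays, replicates 1 to 4. Its level was lower in the treated arrays within each scan run, by -0.78 in run 1, where slide went with treatment, and -0.29 in run 2. Arrays of different runs overlapped. The change over all wild-type arrays was -0.53 (SE 0.15, adjusted p = 0.0111). Psma2 stood at 7.11, 7.14, 7.31 and 7.41 untreated and at 6.86, 6.63, 7.03 and 7.18 treated, a change of -0.32 (SE 0.10, adjusted p = 0.0258).

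In the beta ring, Psmb5, which carries the chymotrypsin-like site, rose by 0.26 (SE 0.09, adjusted p = 0.0394). Its untreated levels of 7.50, 7.92, 7.74 and 7.79 overlapped the treated levels, which ran from 7.91 to 8.07. The other beta subunits changed by -0.09 to 0.17 and were not called. They include Psmb6 and Psmb7, which carry the caspase-like and trypsin-like sites, at -0.09 and -0.02. Under quantile normalization the change of Psmb5 was -0.067. By its second probe, with the main scaling, Psmb5 was at 0.26 without passing the test (SE 0.11, adjusted p = 0.082).

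Among the ATPases, Psmc2 rose by 0.33 (SE 0.11, adjusted p = 0.0341) and the other 5 changed by -0.10 to 0.08. By its second probe Psmc2 was at 0.42 (SE 0.12, adjusted p = 0.0105). Psmd1, the large scaffold of the base, fell by 0.29 on the log2 scale (SE 0.11, adjusted p = 0.0489). Its treated levels of 5.47, 5.52, 5.35 and 5.52 lay within or below the untreated 5.63, 5.44, 5.88 and 6.06, and the change was -0.04 in run 1 and -0.54 in run 2. The base subunits Psmd2, a second scaffold, and Psmd4, a ubiquitin receptor, changed by -0.14 and 0.04.

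The lid held the clearest rises. Psmd8 stood at 4.35, 4.26, 4.37 and 4.32 in the untreated and at 5.39, 4.92, 4.77 and 4.98 in the treated wild-type arrays. Every treated array was above every untreated array, and the change was 0.69 (SE 0.12, adjusted p = 0.000379), a ratio of 1.61. Psmd14, the deubiquitinase of the lid, stood at 3.40, 2.96, 3.48 and 3.51 untreated and at 3.82, 3.79, 3.62 and 3.81 treated. Its groups did not overlap either, and its change was 0.42 (SE 0.11, adjusted p = 0.00864). These were the 2 members whose wild-type groups lay apart in the upward direction, as they did for 13.7% of all genes, and 0 members had groups that lay apart downward, as 8.17% of all genes did. The other lid subunits changed by -0.33 (Psmd3) to 0.21 (Psmd11) without passing the test. Of the 3 chaperones that assemble the base, Psmd10 fell by 0.32 on the log2 scale (SE 0.11, adjusted p = 0.0371), while Psmd5 and Psmd9 were at 0.23 and 0.02. By its second probe Psmd10 was at -0.78 (SE 0.17, adjusted p = 0.00236).

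The 3 smallest wild-type changes were those of the lid subunit Psmd7 (0.01), the chaperone Psmd9 (0.02) and the beta subunit Psmb7 (-0.02). Psmd7 stood at 4.37, 4.28, 4.88 and 4.86 untreated and at 4.52, 4.41, 4.74 and 4.76 treated. Psmd9 stood at 3.04, 2.85, 2.89 and 2.85 untreated and at 3.20, 2.75, 2.83 and 2.95 treated. Psmb7 stood at 5.10, 4.70, 5.26 and 5.23 untreated and at 5.10, 4.85, 5.07 and 5.18 treated. Treated and untreated arrays overlapped for each of the 3.

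The count of 8 was sensitive to the processing, and it was 0 with scaling to array medians. Over 24 alternatives Psmd8 lost its call in 2, Psmd14 in 4 and Psma5 in 5. The other calls were lost in most of them, Psma2 in 13, Psmd1 and Psmd10 in 14 each, Psmc2 in 15 and Psmb5 in 16, besides 1 in which Psmb5 changed sign. Quantile normalization called 2 members higher and 15 lower, including all 7 tested alpha subunits, and kept Psmd8 (0.54) and Psmd14 (0.30) among the higher. Left out singly, 7 of the 8 wild-type arrays brought the count to between 3 and 5, and untreated replicate 2 to 6.

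**Figure D1:**
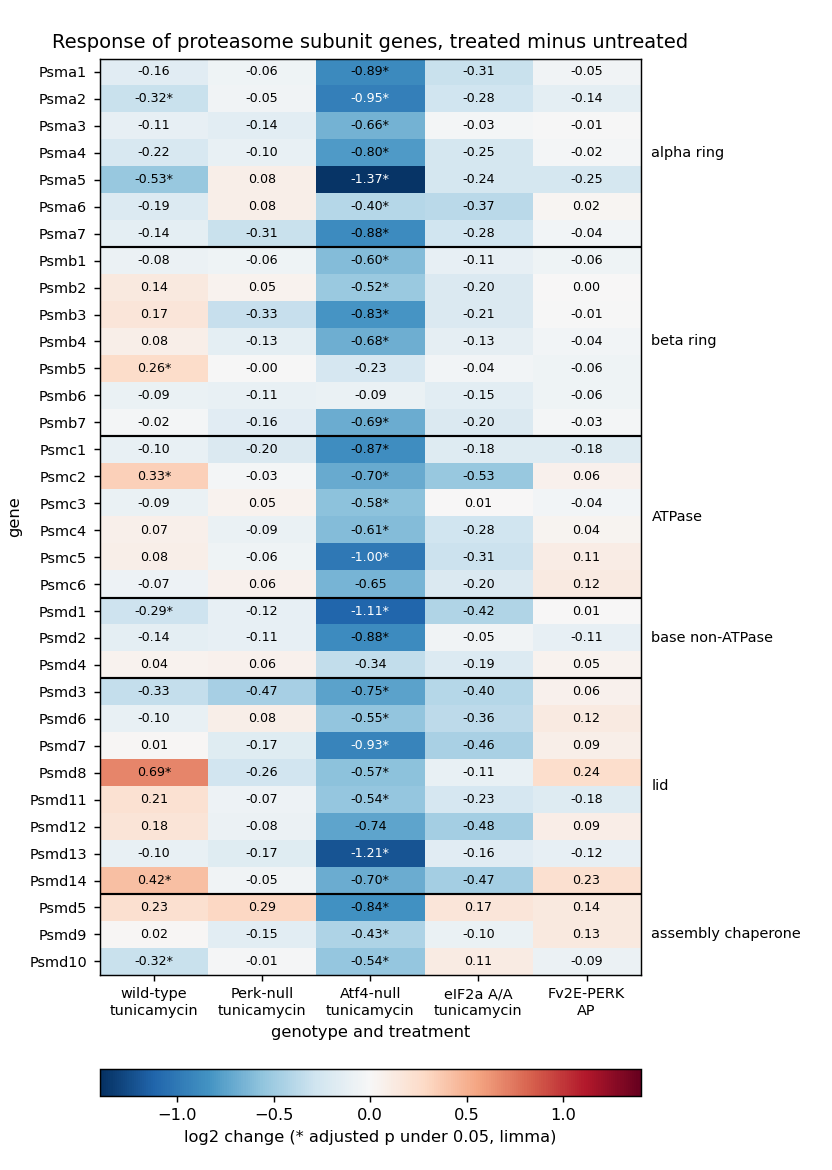
Heat map of the log2 change, treated minus untreated, of the 34 tested proteasome subunit genes (rows, grouped by place in the complex) in the 5 genotypes (columns); a star marks an adjusted p under 0.05 (limma). The Atf4-null column is negative in every row, with 29 stars, while the wild-type column has 4 rises and 4 falls and the other 3 columns have no star. The stars rest on 1 spread per gene shared by all arrays. With the spread of each scan run alone, 0 members were called in Atf4-null and Perk-null cells, 10 in eIF2a A/A cells and 1 with AP.

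The proteasome subunit genes were lower as a group in treated than in untreated Atf4-null cells. Treated and untreated arrays lay on different slides, so tunicamycin and slide cannot be told apart here. All 34 members had a negative change, and 29 of them passed the test, 12 of 14 in the core and 17 of 20 in the regulatory particle. Of all genes tested 29% were called and 17.1% were lower. The members' median change was -0.70, against -0.04 for all genes. For 32 members both treated arrays lay below both untreated arrays, as they did for 29.4% of all genes.

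All 7 tested alpha subunits fell. Psma5 was at 5.19 and 5.86 untreated and at 4.06 and 4.25 treated, a change of -1.37 (SE 0.21, adjusted p = 0.00028), a 2.59-fold lower level. Psma2 fell by 0.95 on the log2 scale, Psma1 by 0.89 and Psma7 by 0.88, all of them subunits of the same ring. The smallest fall in the ring was that of Psma6, by 0.40. In the beta ring 5 of 7 members fell, with Psmb3 at -0.83. Psmb5, at -0.23, and Psmb6 did not pass. Psmb6 stood at 6.89 and 7.26 untreated and 6.96 and 7.01 treated, so that its treated arrays lay between its untreated ones and its change was -0.09 (SE 0.14, adjusted p = 0.666).

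In the regulatory particle, Psmd13, a lid subunit, was at 4.45 and 5.00 untreated and 3.63 and 3.40 treated, a change of -1.21 (SE 0.19, adjusted p = 0.00037). On the same slides its wild-type levels were 4.62 and 4.66 untreated and 4.72 and 4.86 treated. The scaffold Psmd1 fell by 1.11 on the log2 scale, the ATPase Psmc5 by 1.00 and the lid subunit Psmd7 by 0.93. All 3 assembly chaperones fell, by 0.43 to 0.84. The members not called were Psmc6 (-0.65, SE 0.27), Psmd4 (-0.34, SE 0.14) and Psmd12 (-0.74, SE 0.38), besides the 2 beta subunits. Of the 8 members with further probes on the array, 6 fell by their second probe. Among these was Psmd12, not called by its brightest probe, at -0.52 (SE 0.17, adjusted p = 0.0341). The second probes of Psmb5 and Psmd9 were at -0.34 and -0.17 without passing the test.

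**Figure D2:**
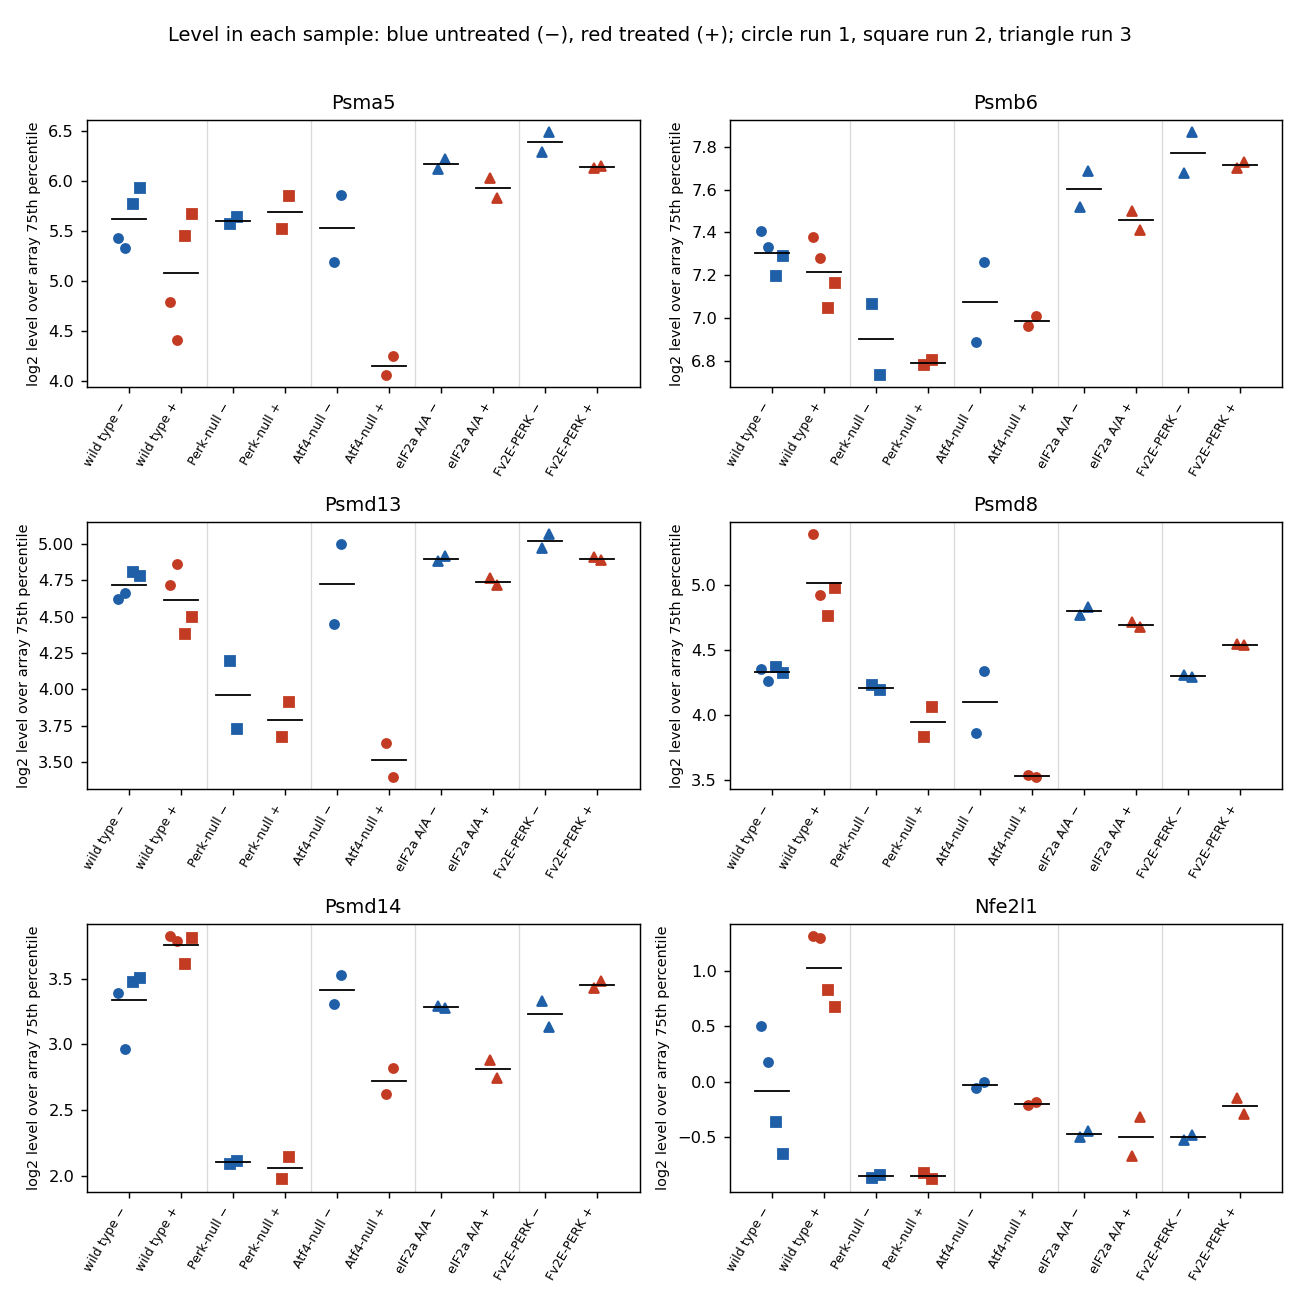
Level of 5 proteasome subunit genes and of Nfe2l1 in each of the 24 samples (vertical axis, log2 processed intensity minus the array's 75th percentile), by genotype and treatment; each point is 1 sample, blue untreated and red treated, its shape gives the scan run, and the line is the group mean. Psmd8 and Psmd14 are higher in all 4 treated than in all 4 untreated wild-type samples, Psma5 and Psmd13 are lowest in treated Atf4-null cells, and Psmb6 moves little.

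The size of the Atf4-null fall depended on how arrays were scaled, and bright probes as a whole moved the same way. The tested genes were divided into 4 equal groups by signal, and 31 of the 34 members lay in the brightest. The median change of that group was -0.28, with 32.2% called lower, against 0.46 in the dimmest. Under quantile normalization, which brought the brightest group's median to 0.01, the members' median was -0.39 and 15 members were called, all of them lower and all among the 29. Scaling to array medians moved the median of all genes to -0.66 and that of the members to -1.32. Without untreated replicate 2, whose members stood above those of replicate 1, the count was 15, and a fit of the run 1 arrays alone called 0 members, with 21 at an unadjusted p under 0.05 and the lowest adjusted p at 0.0618. In that run 1 fit 3202 of all 14459 genes had an unadjusted p under 0.05. The wild-type arrays of the same 2 slides had a members' median change of 0.04.

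The other genotypes showed no called subunit. In Perk-null cells 0 members passed the test, with 2 at an unadjusted p under 0.05, where 2.28% of all genes were called. Their changes ran from -0.47 (Psmd3) to 0.29 (Psmd5), with a median of -0.07. In eIF2a A/A cells 0 members passed, with 6 at an unadjusted p under 0.05, where 4.9% of all genes were called. Here 31 of 34 changes were negative and the median was -0.21, against 0.01 for all genes. For 27 members both treated arrays lay below both untreated arrays, as they did for 33% of all genes. The largest changes were Psmc2 at -0.53 (SE 0.16, adjusted p = 0.0792), Psmd12 at -0.48 and Psmd14 at -0.47. With the spread taken from the run 3 arrays alone, 10 members were called lower, among them Psmc2, Psmd14, Psmd7 and Psmd1. That fit called 4967 genes in all, against 708. The members' median standard deviation between replicates was 0.073 untreated and 0.064 treated in eIF2a A/A cells. It was 0.25 and 0.13 in Atf4-null cells. In Fv2E-PERK cells AP gave 0 calls, also 0 at an unadjusted p under 0.05, where 4.07% of all genes were called. The members' changes lay between -0.25 (Psma5) and 0.24 (Psmd8), with a median of -0.01. In the fit of run 3 alone 1 member was called, beside 4721 of all genes. It was Psmd8, which stood at 4.31 and 4.29 untreated and 4.54 and 4.54 with AP.

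The differences between responses were tested directly, each against the wild-type response, so the 3 tests share the wild-type arrays. The Atf4-null response was lower than the wild-type response for 24 of 34 members, 11 core and 13 regulatory, where 30.5% of all genes were called and 19.6% were lower, and for 0 it was called higher. The median difference was -0.71, against -0.13 for all genes and -0.44 for the brightest of the 4 signal groups, where 36.7% were called lower. Psmd8 differed most, at -1.26 (SE 0.21, adjusted p = 0.000585). It rose in wild-type cells, whereas it went from 3.86 and 4.34 to 3.54 and 3.52 in Atf4-null cells. Psmd14 differed by -1.12, Psmd13 by -1.11 and Psmc5 by -1.08, and Psmb6 by 0.00.

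Other settings lowered the count of 24. Under quantile normalization the members' median difference was -0.21, against 0.02 for the brightest signal group. Quantile normalization called 6 members lower, namely Psmc5, Psmd5, Psmd7, Psmd8, Psmd13 and Psmd14, all of the regulatory particle, and 1 higher, Psmb6 at 0.69. The count was 13 without the term for the scan run and 0 in run 1 alone. In that run 1 fit 11 members and 3385 of all genes had an unadjusted p under 0.05. Of single arrays left out, untreated Atf4-null replicate 2 lowered the count most.

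**Figure D3:**
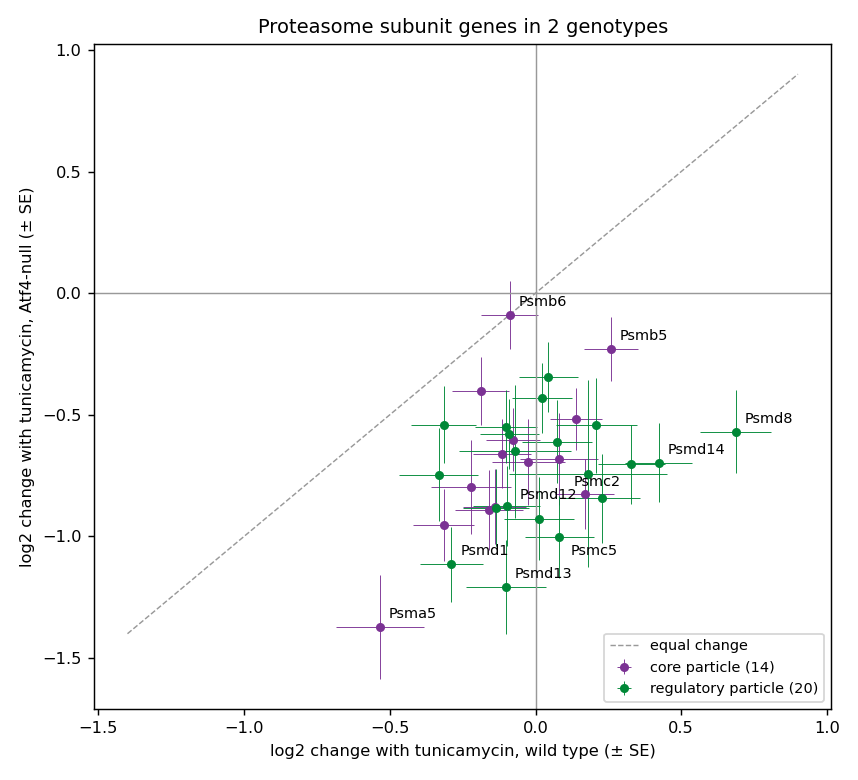
Log2 change with tunicamycin of the 34 tested members in wild-type cells (horizontal axis, 4 against 4 arrays) and in Atf4-null cells (vertical axis, 2 against 2), with standard errors from limma; purple, core particle, green, regulatory particle, dashed line, equal change. The points lie below the line except Psmb6, which sits on it at -0.09 in both.

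Psmd8 was the member called against the wild-type response in all 3 mutants. Its response differed from the wild-type response by -0.95 in Perk-null cells (SE 0.21, adjusted p = 0.0078), the 1 member called there, where 13.2% of all genes were called and 6.64% were lower. It differed by -0.80 in eIF2a A/A cells (SE 0.21, adjusted p = 0.0156). Its levels went from 4.23 and 4.20 to 3.83 and 4.06 in Perk-null cells and from 4.77 and 4.83 to 4.71 and 4.67 in eIF2a A/A cells. In neither genotype did a treated array lie above an untreated one. The other members called against the wild-type response in eIF2a A/A cells were Psmd14 at -0.89 and Psmc2 at -0.86, so that 3 members were lower, where 18.2% of all genes were called and 10.1% were lower. In these cells Psmd14 went from 3.29 and 3.28 to 2.88 and 2.75 and Psmc2 from 6.85 and 6.97 to 6.45 and 6.31. Both rose in wild-type cells, where Psmc2 stood at 6.16, 6.02, 6.49 and 6.61 untreated and 6.61, 6.52, 6.63 and 6.84 treated. Scaling to array medians left 0 members called in both comparisons, and the Perk-null call was also lost without treated replicate 1.

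Core and regulatory particle had similar medians, which were described and not tested. In Atf4-null cells the median change was -0.69 in the core and -0.70 in the regulatory particle. In wild-type cells it was -0.10 and 0.02, in Perk-null cells -0.08 and -0.07, in eIF2a A/A cells -0.21 and -0.22 and with AP -0.04 and 0.06. The largest of these gaps, -0.12 for core minus regulatory in wild type, compares with a standard deviation of 0.105 between replicate arrays for the core median minus the regulatory median. In wild-type cells the core ran from -0.53 to 0.26 and the regulatory particle from -0.33 to 0.69.

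**Figure D4:**
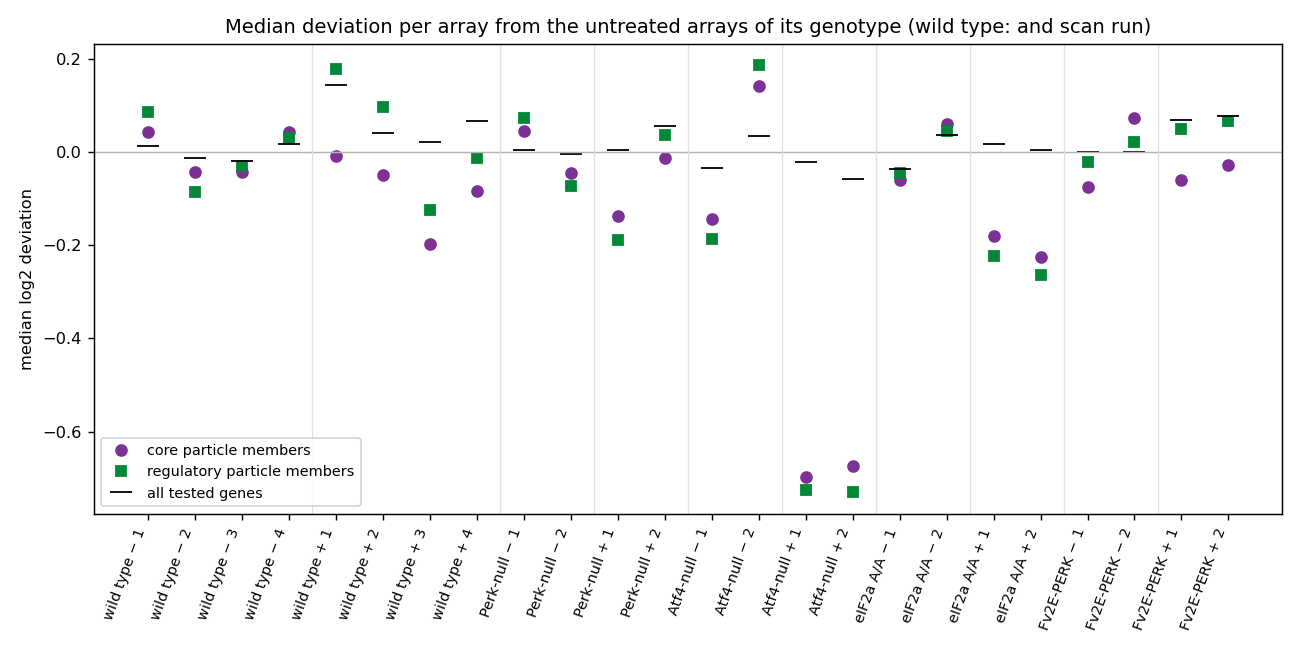
Median log2 deviation of the core members, the regulatory members and all tested genes in each of the 24 arrays from the mean of the untreated arrays of the same genotype, for wild type of the same scan run (horizontal axis, arrays by genotype, treatment and replicate). The treated Atf4-null arrays lie at -0.70 and -0.67 for the core and at -0.72 and -0.73 for the regulatory particle, below all other arrays, while the untreated Atf4-null arrays stand apart from each other.

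Without treatment the subunit genes stood at lower levels in Perk-null than in wild-type cells. Of 34 members 24 were lower and 0 higher, 8 of the core and 16 of the regulatory particle, where 41.1% of all genes were called and 24.8% were lower. In bulk samples fewer cells of a type and less RNA per cell cannot be told apart. The median difference was -0.64, against -0.07 for all genes and -0.27 for the brightest of the 4 signal groups. Psmd14 was at 2.09 and 2.11 in the untreated Perk-null arrays and 2.96 to 3.51 in the untreated wild-type ones, a difference of -1.29 (SE 0.15, adjusted p = 8e-06). Psmc2 differed by -1.15, Psma4 by -1.05 and Psma6 by -0.94. Psmb4 (0.09), Psmd4 (-0.08) and Psmd8 (-0.05) were closest to the wild-type level. Within run 2, which holds both genotypes, 28 members were lower, including all 24. That fit called 7457 genes in all, against 5945. Quantile normalization left 21 of the 24. The Perk-null replicates lay on different slides, replicate 1 on the slide of the run 2 wild type and replicate 2, the one whose file is named for 24 h, on another. Without replicate 2 the count was 17 with a median of -0.53, without replicate 1 it was 25, and with a fixed term for the Perk-null slide it was 19 with a median of -0.55.

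Some markers of other cell types moved with this comparison. The summed level of 4 epithelial markers was 5.46 to 5.74 in untreated Perk-null and -0.57 to 0.36 in untreated wild-type arrays. Krt18 ranged from 5.43 to 5.71 in Perk-null and from -0.74 to 0.28 in wild-type arrays. Cdh1 was at -0.84 to -0.14 and above background on both Perk-null arrays, against -6.68 to -5.06 and 0 of 4 wild-type arrays. Epcam was at -2.83 to -1.99, against -5.61 to -4.26, and Krt8 at -4.03 to -3.60, against -6.97 to -5.64. The summed level of the fibroblast markers was lower, at 7.88 to 7.90 against 9.40 to 10.00. Among them Fap went the other way, at 0.03 to 0.15 against -4.02 to -1.28, and Pdgfrb, Thy1, Lum and Ddr2 overlapped. The summed level of 4 endothelial markers overlapped, at 3.42 to 4.15 against 2.36 to 4.07. That of 3 haematopoietic markers was higher, at 4.99 to 5.37 against 3.84 to 4.57, and was carried by Itgam, at 4.98 to 5.37 against 3.84 to 4.56. The others overlapped, Ptprc at -5.60 to -4.86 against -6.08 to -4.64 and Adgre1 at -5.30 to -4.16 against -5.90 to -3.81. Of 4 muscle markers, Myog was above background on both Perk-null and 0 of 4 wild-type arrays, at -2.78 to -2.62, while their summed level was -1.68 to -1.45 against 0.32 to 2.38. Their part in the lower subunit levels was not tested. Untreated Atf4-null cells were likewise set against untreated wild-type cells. By second probes Psmd12 was lower there, at -0.76 (SE 0.16, adjusted p = 0.00336), and Psmc1 higher, at 1.18 (SE 0.39, adjusted p = 0.0415). The brightest probe of Psmd12 had the other sign, at 0.48. By brightest probes, where 21.1% of all genes were called, 0 members were called, with 2 at an unadjusted p under 0.05 and a median difference of 0.00. That count was 4, all higher, without Atf4-null replicate 1, 4, all lower, without replicate 2, and 1 without wild-type replicate 2.

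The wider pathway was described through 39 genes for assembly, activators, ubiquitin and the regulation of the proteasome, 38 of them tested. In wild-type cells tunicamycin raised 16 and lowered 8, beside the 37.5% of all genes called. Nfe2l1, the transcription factor of proteasome genes, stood at 0.51, 0.18, -0.37 and -0.66 untreated and at 1.32, 1.30, 0.83 and 0.67 treated. Every treated array lay above every untreated one, and the change was 1.11 (SE 0.11, adjusted p = 1.13e-06), a ratio of 2.17. Its change was 0.00 in Perk-null, -0.17 in Atf4-null and -0.03 in eIF2a A/A cells, and 0.28 with AP (adjusted p = 0.372). The differences from the wild-type response were -1.11, -1.28 and -1.14, with adjusted p of 0.00121, 0.000192 and 0.00065. Scaling to array medians ended the call of the first and the third (adjusted p = 0.126 and 0.202), and leaving out the term for the scan run did so too (0.0901 and 0.0606). The run 1 arrays alone gave -1.14 for the Atf4-null difference (adjusted p = 0.0987).

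Factors that act on the Nfe2l1 protein were split. The protease gene Ddi2 rose by 0.57 and the segregase gene Vcp by 0.34, while Ngly1, the deglycosylating enzyme, fell by 1.02 on the log2 scale. The ER export genes Sel1l and Syvn1 rose by 3.22 and 2.15 and the ER chaperone Hsp90b1 by 2.19. Of the core assembly chaperones, Psmg2 rose by 0.59, Psmg3 by 0.52 and Psmg4 by 0.39, whereas Pomp fell by 0.34. Psmf1, an inhibitor of the core, and Uchl5, a deubiquitinase of the regulatory particle, rose by 0.57 and 0.61. The shuttle factors Ubqln1, Rad23b and Ubqln4 rose by 0.57, 0.47 and 0.34, and the ubiquitin genes Rps27a and Ubb by 0.60 and 0.46. Txnl1, a thioredoxin of the regulatory particle, fell by 0.87 on the log2 scale. The interferon-induced activator genes Psme1 and Psme2 were lower at -0.55 and -0.72, and Psmb8 and Psmb9 at -2.28 and -2.65, with treated and untreated arrays of these 4 genes overlapping.

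In Atf4-null cells 3 of the 38 tested genes of this list were higher and 9 lower after tunicamycin, beside the 29% of all genes called. Those higher were Hsp90b1 at 3.06, Syvn1 at 1.71 and Sel1l at 1.47. Those lower included Pomp at -1.24, the proteasome deubiquitinase Usp14 at -0.87 and the ubiquitin receptor Adrm1 at -0.65. The corresponding counts were 3 and 0 in Perk-null cells, 3 and 1 in eIF2a A/A cells and 0 and 0 with AP. Of all genes 2.28%, 4.9% and 4.07% were called in these 3 responses. With AP 5 genes of the list and 2439 of all genes had an unadjusted p under 0.05. Hsp90b1 and Syvn1 were higher in all 3 mutants given tunicamycin.

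Promoters of the members were searched because most members fell together in Atf4-null cells. RefSeq sequences of mouse assembly GRCm38.p6, 250 bases before to 50 after the start, were held for 28 members in 30 windows and for 32851 windows in all. Letters were matched on both strands. The core of the antioxidant response element, TGACNNNGC, which Nfe2l1 is known to bind, was present in 5 of 30 windows (16.7%) and in 12.4% of all windows. The C/EBP-ATF element TGATGNAA, the kind of site ATF4 binds with a partner, was present in 1 (3.33%) against 3.97% of all, and the box CCAAT in 11 (36.7%) against 37.4%. The ER stress element, CCAAT and CCACG with 9 bases between them, which contains the CCAAT box, and TGACGTGG, bound by XBP1 and ATF6, were in 0 windows, against 0.119% and 0.676% of all. These shares were close to those of all promoters.

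The windows with TGACNNNGC belonged to Psmb5, Psmb6, Psmc6, Psmd9 and Psmd12. These are shown, 5′ to 3′ on the gene's strand with the matched letters in capitals, because they include 4 of the 5 members not called in Atf4-null cells, which was noticed after the calls were known. The matches in Psmc6 and Psmd12 read on the opposite strand.
Psmb5 (chr14:54618024-54618052, minus strand): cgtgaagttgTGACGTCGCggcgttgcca
Psmb6 (chr11:70525338-70525356, plus strand): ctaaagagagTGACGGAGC
Psmc6 (chr14:45329587-45329615, plus strand): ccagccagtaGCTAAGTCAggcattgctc
Psmd9 (chr5:123228149-123228177, plus strand): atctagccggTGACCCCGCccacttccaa
Psmd12 (chr11:107479278-107479299, plus strand): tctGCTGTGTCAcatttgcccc

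The site lay 47 to 39 bases before the start in Psmb5, 9 to 1 in Psmb6 and 31 to 23 in Psmd9, and 227 to 219 in Psmc6 and 247 to 239 in Psmd12. The 5 members with the letters had Atf4-null changes of -0.74 to -0.09, with a median of -0.43, and 1 of them, Psmd9, was called. The 23 tested members with a window but without the letters had changes of -1.37 to -0.34, with a median of -0.80, and 22 of them were called. In wild-type cells the medians were 0.02 and -0.10. Psmc6 and Psmd12 had the largest standard errors of the 34 tested members, beside changes close to the members' median. By their second probes Psmd12 was called, at -0.52, and Psmd9 was not, at -0.17, the reverse of their brightest probes.

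The promoter of Psma5, the member that fell most in Atf4-null cells, and that of Psmd8, which rose most in wild-type cells, are shown beside that of Psmb5 as the 150 bases before the start. Capitals mark letters of any motif searched.
Psma5 (chr3:108256776-108256925, plus strand): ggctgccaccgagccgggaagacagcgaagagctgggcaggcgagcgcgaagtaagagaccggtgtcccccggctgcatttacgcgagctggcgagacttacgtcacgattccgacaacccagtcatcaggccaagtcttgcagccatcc
Psmd8 (chr7:29180674-29180823, minus strand): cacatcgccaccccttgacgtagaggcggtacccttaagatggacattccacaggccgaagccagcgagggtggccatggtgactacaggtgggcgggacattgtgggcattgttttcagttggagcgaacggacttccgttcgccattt
Psmb5 (chr14:54617996-54618145, minus strand): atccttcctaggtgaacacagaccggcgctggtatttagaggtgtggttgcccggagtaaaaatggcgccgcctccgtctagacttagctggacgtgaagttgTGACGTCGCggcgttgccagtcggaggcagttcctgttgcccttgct

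Neither Psma5 nor Psmd8 held any of the searched letters in these bases. Psmd13, the regulatory member that fell most in Atf4-null cells, held the members' TGATGNAA match, shown because it is the letters of the ATF4 element, at 247 to 240 bases before its start and on the opposite strand.
Psmd13 (chr7:140882144-140882164, plus strand): gatTTGCATCAcacctagtcc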

How the data were processed

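Total RNA of 24 samples was labelled with Cy3 and hybridised to 1 array each. The scanner software was Agilent Feature Extraction 10.7.1.1, as the submitters' processing notes and the headers name it. The deposited processed intensity is linear, background-subtracted and detrended, per the file headers, with no scaling between arrays. The authors' deposited log2 values matched the scaled scanner values as differences between arrays for 98.4% of values of tested genes (tolerance 0.001, after each array's offset). Their per-array medians over those genes were -0.10 to 0.12, and the baseline used to centre genes stayed unknown.

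Control spots were left out, and no spot was saturated. Spots of a probe were averaged, log2 was taken and each array's 75th percentile subtracted. Probes were named by accession through RefSeq tables of GRCm38.p6, used for names only. Of 55681 probes 26631 matched 1 gene. Genes were tested where at least 1 group had the brightest probe above background on all its arrays. A single model in limma 3.58.1 (R 4.3.3) held 10 group means and a term for run 2, with 13 residual and 2.23 prior degrees of freedom, two-sided, and Benjamini-Hochberg adjustment was made over the 14459 genes of each contrast. The script was tested on simulated data.

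The members, the pathway list, the motifs and the tests were chosen with earlier results of these data known. Named were all members called in wild type, the 4 core and 4 regulatory members with the largest called change in each other response, the 4 largest called in each difference and untreated comparison, and the pathway genes called in wild type, of which 1 is not reported here; other members named were chosen after their values were seen. Alternatives were other background corrections, scalings, filters, batch terms, probe rules, the deposited values and leaving out single arrays. No list was tested as a set. The number of arrays limits the precision.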

Additional observations from a re-analysis of the deposited data

Results flagged for a closer look

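In 1 of 68 combinations of a tested member and a wild-type group of 4 arrays, an array stood apart from the rest. It was Psmd12, a lid subunit, in untreated wild-type replicate 2, at a level of 3.98 with a gap of 0.875 of the group's range, above Dixon's critical value. Chance flags about 1 in 20 such groups.

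Responses that differed between genotypes, by a test of the difference itself, were these. The Atf4-null response differed from the wild-type response for 24 members, most for Psmd8 (-1.26), Psmd14 (-1.12), Psmd13 (-1.11) and Psmc5 (-1.08). The eIF2a A/A response differed for 3 members, Psmd14 (-0.89), Psmc2 (-0.86) and Psmd8 (-0.80), and the Perk-null response for 1, Psmd8 (-0.95). Psmd8 thus appeared in all 3 comparisons and Psmd14 in 2 of them, and the 3 comparisons share the wild-type arrays.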

How the results depend on the processing

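The deposited values and the mean of all probes changed no count of members by over 1.5 times. Neither did setting Perk-null and Atf4-null cells against the wild type of their own scan run and line. In that setting eIF2a A/A cells were compared with both wild types, since their run held none. For the wild-type response the count of 8 became 3 with normexp background correction, 17 with quantile normalization, 0 with scaling to array medians, 3 without a filter on dim probes, 2 without the term for the scan run, 5 with slide as a random block, 2 for the wild type of run 2, and 0 and 3 with the arrays of run 1 or run 2 alone. The Atf4-null count of 29 became 15 with quantile normalization and 0 with run 1 alone, and the 24 of its difference from wild type 7, 13 without the run term and 0 with run 1 alone. For eIF2a A/A, 0 became 1 with quantile normalization and 10 with run 3 alone, and for AP 0 became 1 with run 3 alone. Of the differences from wild type, the Perk-null count of 1 became 3 with quantile normalization and 0 with median scaling, and the eIF2a A/A count of 3 became 5 and 0. Untreated Atf4-null cells went from 0 to 2 with normexp and 2 with quantile normalization. The single reversal was Psmb5 in wild type under quantile normalization, at -0.067. The cause of these changes was not tested. Leaving out single arrays gave 3 to 6 for wild type, 15 to 29 for Atf4-null, 12 to 27, 0 to 1 and 2 to 3 for the differences of Atf4-null, Perk-null and eIF2a A/A, 17 to 26 for untreated Perk-null and 0 to 4 for untreated Atf4-null cells. It left 0 in the Perk-null, eIF2a A/A and AP responses. A group left with 1 array was assumed to vary like the others. Same-numbered arrays did not deviate together (correlations of -0.47 to 0.07), so the numbers were not taken to pair samples. The -0.47 is that of the Perk-null arrays, where slides tie untreated replicate 1 to treated replicate 2 and the reverse. A fixed term for that slide, chosen after seeing the data, gave 19 for untreated Perk-null cells. With the replicate block the Atf4-null count was 28, its difference from wild type 24 and the untreated Perk-null count 19, with a median of -0.38. With the numbers crossed, also chosen after seeing the data, those counts were 27, 25 and 19. The core minus regulatory median moved beyond the spread between arrays only in the Atf4-null response and only without an untreated Atf4-null array, to 0.15 without replicate 1 and -0.11 without replicate 2.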

Other observations

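The interferon-induced catalytic subunits, which take the place of Psmb5 and Psmb6 in the immunoproteasome were not members. Their arrays stood far apart within the wild-type and the untreated Atf4-null groups and close together in the untreated Perk-null, Fv2E-PERK and eIF2a A/A groups. Psmb8 stood at 5.96 and 4.37 in the untreated wild-type arrays of run 1 and at -1.38 and -1.51 in those of run 2. The treated wild-type arrays were at 0.85 and 2.10 in run 1 and -2.18 and -2.45 in run 2, so that treated arrays lay below untreated ones within each run. In untreated Atf4-null cells the levels were 2.12 and -1.39. Psmb9 followed with 4.84 and 2.42 in run 1 and -1.66 and -1.89 in run 2 of the untreated wild type. The untreated Perk-null arrays were at 2.30 and 2.26 for Psmb8, and the untreated eIF2a A/A arrays at -2.78 and -2.59.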
